A study of Mus musculus with 16 samples.

Results

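Erythroid miRs were followed through early mouse hematopoiesis: miR-144 and miR-451, which are cut from a single transcript, and miR-486. They were chosen by name as the non-control probes for mmu-miR-144, mmu-miR-451 and mmu-miR-486, and made up 3 of 577 miRs, 6 of 1712 probes and 60 of 11540 non-control spots on each of 16 one-colour Agilent mouse miR arrays. Each array was hybridised with RNA of a population sorted from pooled bone marrow of young adult female C57Bl/6 mice, with no treatment and no altered allele in any group. The marrow was depleted of cells carrying mature lineage antigens, among them the red cell antigen Ter119, and enriched for c-kit before sorting.

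HSC subsets were c-kit+ Sca-1+ and came from one sort. Long-term hematopoietic stem cells (LT-HSC, CD34- FLT3-) were on 1 array, and short-term HSC (ST-HSC, CD34+ FLT3-) and multipotent progenitors (MPP, CD34+ FLT3+) were on 3 arrays each. Myeloid progenitors were Sca-1- and came from another sort. Common myeloid progenitors (CMP, intermediate for CD34 and the Fc gamma receptor), granulocyte-monocyte progenitors (GMP, CD34+ and Fc gamma receptor high) and megakaryocyte-erythroid progenitors (MEP, low for both) were on 3 arrays each. Each replicate was a pool of several mice, so that p-values measure the spread between pools and arrays. A sorted population is still a mixture, and a lower level can mean fewer cells that hold a miR or less of it per cell. These cannot be told apart here.

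MiR-144 and miR-451 are made from a transcript that the erythroid transcription factor GATA1 switches on. MiR-451 is known for its maturation, in which Argonaute 2 rather than Dicer cuts its short hairpin, and for protecting red cells from oxidative stress through its target Ywhaz. MiR-486 lies within Ank1, the gene of the red cell and muscle membrane skeleton protein ankyrin-1, and is known in erythroid cells and in muscle.

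The mature miRs and hairpins of the shared locus are shown because the arms measured, the seeds and the spacing of the pair bear on how the probes can be read. The sequences are from RefSeq on GRCm38.p6, 5′ to 3′, with the seed (bases 2 to 8) in capitals. The first lies at chr11:78073047-78073066, the second at chr11:78073010-78073032 and the third at chr11:78073186-78073207, all on the plus strand.
mmu-miR-144-3p: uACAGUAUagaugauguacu
mmu-miR-144-5p: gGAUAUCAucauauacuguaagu
mmu-miR-451a: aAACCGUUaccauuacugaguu

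In the hairpins the capitals mark the mature miR that the probes cover, miR-144-3p and miR-451a.
Mir144: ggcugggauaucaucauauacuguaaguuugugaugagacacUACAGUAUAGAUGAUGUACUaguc
Mir451a: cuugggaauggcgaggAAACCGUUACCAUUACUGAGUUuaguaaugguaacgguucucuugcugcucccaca

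The hairpins span 66 and 72 bases and are separated by 99 bases. MiR-144-3p fills bases 43 to 62 of its hairpin. MiR-451a fills bases 17 to 38 and so runs across the loop of its own hairpin. The seeds ACAGUAU and AACCGUU were each found in no other of the 1679 mature mouse miRs listed (0 in both cases), so that the pair shares a transcript but not a seed. RefSeq lists Mir451b over the same bases as Mir451a, at chr11:78073170-78073241, and the probes are named for miR-451 alone. Mir486 lies at chr8:23142555-23142682 on GRCm38.p6, inside the span of Ank1 (chr8:22974836-23150501).

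On the array each miR had 2 probes of 10 spots each, placed on mm9 by the file headers. Those of miR-144 covered 19 and 20 bases up to chr11:77886568 and those of miR-451 covered 21 and 22 bases up to chr11:77886709. The first bases covered lay 139 bases apart, the same distance as from miR-144-3p to miR-451a on GRCm38.p6 and not the 176 bases from miR-144-5p. The miR-144 probes therefore match the 3′ arm in position. The miR-486 probes covered 14 and 13 bases up to chr8:24253080.

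MiR-451 was found on every array, whereas miR-144 and miR-486 were found on all MEP arrays and on few others. Feature Extraction, the scanner software, calls single spots well above background, and a probe was counted as such where the share of its spots with this call was 0.5 or more. Both miR-451 probes passed on 16 of 16 arrays, and outside MEP all 127 and all 125 of their retained spots were well above background. Both miR-144 probes passed on 5 arrays, namely MEP 1 to 3, LT-HSC 1 and ST-HSC 1, and outside MEP 17 of 127 and 19 of 124 retained spots were above background. For miR-486 the brighter probe passed on 5 arrays, MEP 1 to 3, LT-HSC 1 and CMP 1, and the other on 4, without CMP 1.

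The software's own call per miR, which pools all spots of a miR, was more lenient. It found miR-144 on 6 arrays, adding CMP 3, and miR-486 on 10, adding ST-HSC 1 to 3, MPP 1 and GMP 3. It found miR-451 on all 16. The presence of miR-144 in CMP and of miR-486 in ST-HSC, MPP and GMP thus depended on the call used. That of miR-451 did not.

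The background-subtracted signal of an array, in scanner units, is given first as deposited, before any normalization between arrays. For miR-451 it was 6675, 2834 and 3385 units on the MEP arrays. It was 310.3 on the LT-HSC array. The ST-HSC arrays had 143, 80.9 and 193 units. No MEP array came near any other array, and the LT-HSC array lay above the ST-HSC arrays.
The MPP arrays had 126, 46.3 and 106 units of miR-451. The CMP arrays had 401, 127 and 48.5. The GMP arrays had 53.6, 35.7 and 44.0. The highest CMP array exceeded LT-HSC in units and the lowest lay among the GMP arrays.

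MiR-144 measured 559, 375 and 303 units on the MEP arrays. LT-HSC 1 had 13.0 units and ST-HSC 1 had 12.3, and both stood above the 95th percentile of the negative controls on their arrays, 2.21 and 1.77 units. ST-HSC 2 and 3 had 1.27 and 3.15 units and were not well above background. ST-HSC arrays were thus divided, with miR-144 measured on the one array that shared a slide with LT-HSC 1.
On the CMP arrays miR-144 had 12.8, 2.53 and 6.27 units against negative-control percentiles of 30.6, 44.3 and 2.21. On the GMP arrays it had 1.93, 0.14 and 3.78 units, and on the MPP arrays 1.58, 0.83 and 0.70. None of these 9 values was well above background, and the signal of CMP 1, close to that of LT-HSC 1 in units, lay below the negative controls of its own array.

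MiR-486 measured 280, 160 and 98.5 units on the MEP arrays and 23.8 on the LT-HSC array. The CMP arrays had 28.8, 13.8 and 3.35 units, of which 28.8 alone passed, through 8 of 10 spots of the brighter probe and 1 of 10 of the other. The remaining arrays had 3.01 to 7.56 units and did not pass. CMP 1 was the one CMP array on which miR-486 passed, and its 28.8 units still lay below the 95th percentile of the negative controls of that array, 30.6 units. In units CMP 1 had the highest signal of each erythroid miR among the CMP arrays, and after normalization miR-144 was highest on CMP 3, at 3.78 against 3.04 on the log2 scale.

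**Figure D1:**
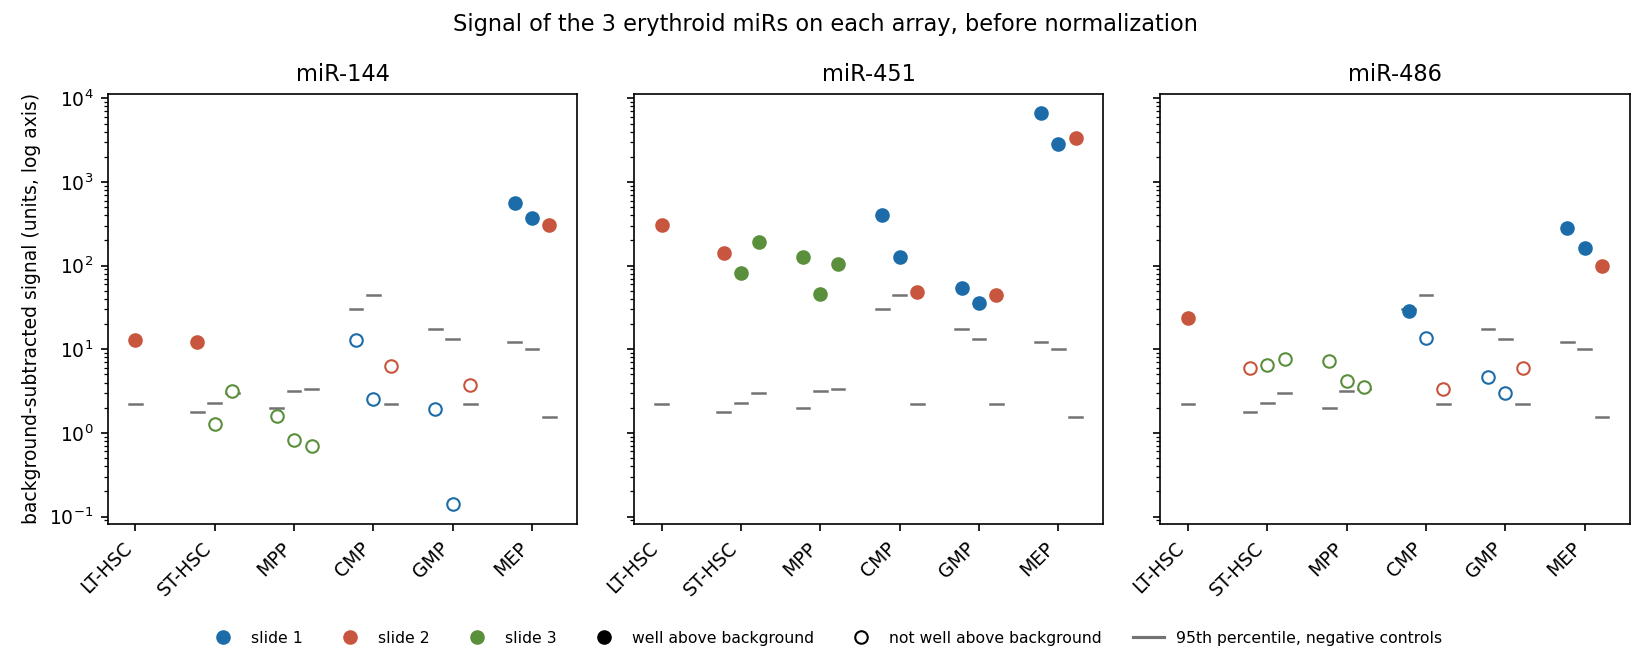
Background-subtracted signal (units, log axis) of the brightest probe of miR-144, miR-451 and miR-486 on each of 16 arrays by population, coloured by slide; filled points are well above background, open points are not, and grey dashes mark the 95th percentile of the negative controls of that array. All MEP points lie above all others for each miR, the LT-HSC point is filled in all panels, and grey dashes sit higher on slide 1 (9.94 to 44.3 units) than on slides 2 and 3 (1.53 to 3.35 units).

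Both probes of a miR gave the same picture. The miR-144 probes had the same call on 16 of 16 arrays, and the longer one read 0.957 to 1.16 times the shorter where both passed. For miR-451 the longer probe read 1.32 to 1.83 times the shorter on the 16 arrays. For miR-486 the second probe read 0.687 to 0.831 times the first on 4 arrays, and the calls were the same on 15 of 16. The level of one miR cannot be set against that of another on these arrays, since each probe binds with its own strength.

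For the comparisons the probe means were quantile-normalized between the arrays, raised to a floor of 3.07 units and set on the log2 scale, and the brightest probe stood for its miR. On this scale the order of miR-451 was MEP at 12.12 ± 0.35 (SD, n = 3), LT-HSC at 11.15 (n = 1), ST-HSC at 7.44 ± 1.02, CMP at 6.91 ± 0.82, MPP at 6.37 ± 1.12 and GMP at 5.37 ± 0.57 (SD, n = 3 each). Of the neighbours in this order, LT-HSC and ST-HSC alone were called different in the limma fit. The others were 0.97 apart for MEP and LT-HSC (adjusted p = 0.503), 0.53 for ST-HSC and CMP (adjusted p = 0.540), 0.53 for CMP and MPP (adjusted p = 0.509) and 1.01 for MPP and GMP (adjusted p = 0.197).
MiR-144 stood at 9.25 ± 0.39 in MEP (SD, n = 3) and 5.29 in LT-HSC, and miR-486 at 7.74 ± 0.29 and 6.34. Their means in the other populations ran from the floor, 1.62, to 2.81 and from 2.24 to 3.48. These lower means come mostly from arrays without a call and have no firm order.

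The first question was how far MEP, the progenitor of red cells and platelets, stood above its parent CMP and its sister GMP. MiR-451 was higher in MEP than in CMP by 5.21 on the log2 scale (SE 0.61, limma adjusted p = 8.7e-06), and higher than in GMP by 6.75 (SE 0.61, adjusted p = 1.0e-06), that is 37.0-fold and 108-fold. MiR-144 was at least 30.9-fold higher in MEP than in CMP (adjusted p = 4.2e-06) and at least 51.2-fold higher than in GMP (adjusted p = 1.1e-06). Here "at least" sets the brighter mean against the lowest signal called well above background on each dimmer array, or against the miR's own value where that is higher. These bounds hold on the quantile-normalized scale, and another scaling moves them.
MiR-486 was called higher in MEP than in CMP (adjusted p = 8.7e-06), with a fitted difference of 4.26 that is not firm because CMP 1 alone measured it, and at least 17.9-fold higher than in GMP (adjusted p = 1.0e-06). All 3 miRs were called higher in both comparisons. Of the 237 miRs tested 20.7% were called higher in MEP than in CMP and 21.9% higher than in GMP. For the 3 miRs every MEP array lay above every CMP and GMP array, and the share of all miRs for which this held is not given here.

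For miR-451, the one measured on all these arrays, the difference was read within slides. On slide 1, with 2 arrays a side, MEP exceeded CMP by 5.01 for miR-451, and on slide 2, with 1 array a side, by 5.60. MEP exceeded GMP by 6.99 and 6.29 for miR-451 on these slides. MEP against CMP and GMP kept its direction and call in every alternative run, with miR-451 between 4.53 and 5.69 above CMP.

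Against the stem cell subsets, miR-451 in MEP exceeded ST-HSC by 4.68 (SE 0.61, adjusted p = 2.4e-05) and MPP by 5.75 (SE 0.61, adjusted p = 2.6e-06). MiR-144 was called higher than in ST-HSC (adjusted p = 2.8e-06), where ST-HSC 1 alone measured it, and the fitted difference of 6.66 followed the floor, at 7.17 with 1 unit and 5.54 with 10 units. On slide 2 MEP 3 exceeded ST-HSC 1, both measured, by 5.20. MiR-144 was at least 78.4-fold above MPP (adjusted p = 5.1e-07). MiR-486 was at least 20.8-fold above ST-HSC (adjusted p = 2.8e-06) and at least 27.4-fold above MPP (adjusted p = 6.2e-07). All 3 miRs were called higher in MEP in both comparisons, against 21.5% of all miRs tested for ST-HSC and 25.3% for MPP. No MPP array shared a slide with an MEP array, and the ST-HSC arrays link their slides. With slide as a block MEP minus MPP was 4.89 for miR-451 (adjusted p = 0.0029).

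MEP and LT-HSC were closer. MiR-144 was higher in MEP by 3.96 (SE 0.96, adjusted p = 0.0074), the 1 of the 3 that was called (adjusted p = 0.0523 with a floor of 1 unit), where 11% of all miRs tested were called higher. MiR-451 differed by 0.97 (95% interval -0.88 to 2.83, adjusted p = 0.503) and miR-486 by 1.39 (95% interval -0.11 to 2.90, adjusted p = 0.165), and these intervals reach from a slightly lower level in MEP to a clearly higher one. For each miR every MEP array lay above the single LT-HSC array, and the share of all miRs for which this held is not given here.
These differences moved with the scaling. The LT-HSC array was the dimmest, with a summed signal of 307528 units over its spots where the next array had 664869, and quantile normalization raised its values. Without any normalization MEP exceeded LT-HSC by 3.69 for miR-451 (adjusted p = 0.0166), when the median miR also differed by 1.40. MiR-486 was called in 4 of 13 alternatives that kept all arrays. On slide 2, which held both, MEP 3 had 10.9 times the units of miR-451 of LT-HSC 1, 23.2 times those of miR-144 and 4.13 times those of miR-486.

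**Figure D2:**
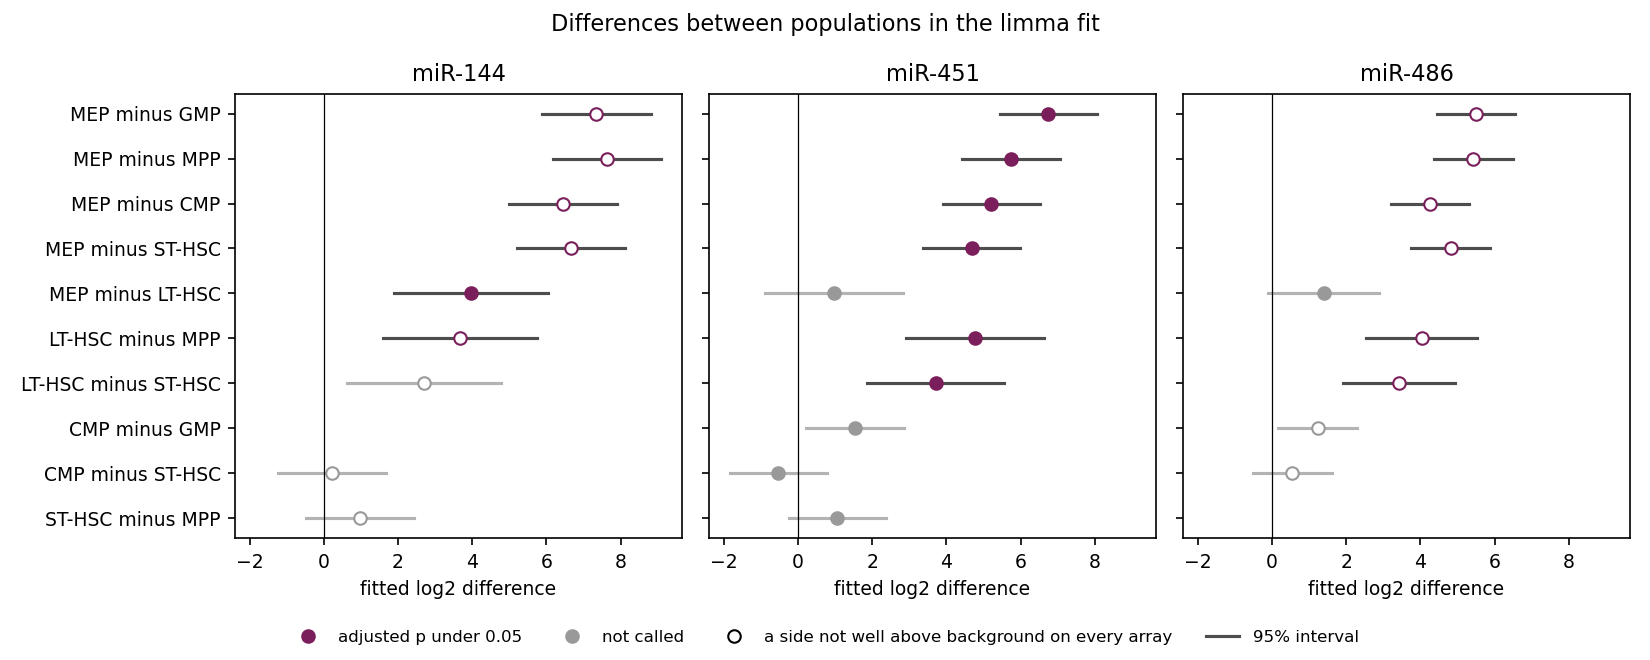
Fitted log2 difference (points) with its 95% interval (lines) for each pair of populations and each miR, from one limma fit to 16 arrays; coloured points have an adjusted p under 0.05, and open points have a side that was not well above background on every array, so that their size is not firm. Rows in which neither side was measured are left blank. MEP lies to the right of zero against CMP, GMP, ST-HSC and MPP for all 3 miRs, and against LT-HSC the interval of miR-451 runs from -0.88 to 2.83.

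The LT-HSC array carried more of the erythroid miRs than the next subsets. MiR-451 was higher on it than in ST-HSC by 3.71 (SE 0.86, adjusted p = 0.0085) and than in MPP by 4.77 (SE 0.86, adjusted p = 0.00094). MiR-486 was called higher than in ST-HSC (adjusted p = 0.0042) and MPP (adjusted p = 0.00071). Its 23.8 units in LT-HSC stood beside 5.95 to 7.56 on the ST-HSC arrays and 3.58 to 7.23 on the MPP arrays, none of them well above background. The bounds on the normalized scale, at least 7.90-fold and 10.4-fold, are larger than the folds in units and rest on that scaling. MiR-144 was at least 5.02-fold higher than in MPP on the normalized scale (adjusted p = 0.0101), and its fitted difference of 2.70 from ST-HSC, measured on ST-HSC 1 alone, was not called (95% interval 0.63 to 4.77, adjusted p = 0.0612).
In LT-HSC 2 of 3 were called higher than in ST-HSC, where 6.33% of all miRs tested were, and 3 of 3 higher than in MPP, where 12.2% were. All miRs called lower on the LT-HSC array made up 16.5% and 26.6%. LT-HSC was 1 array, assumed in the fit to vary as the other populations did, so that no result on it has a replicate check. No MPP array shared a slide with the LT-HSC array. With slide as a block the miR-144 difference from MPP was 0.83 (adjusted p = 0.255).

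In units and on the same slide the gap was smaller for the pair. LT-HSC 1 had 2.17 times the units of miR-451 of ST-HSC 1 and 1.06 times those of miR-144. For miR-486 it had 23.8 units against 5.95. Without normalization between arrays the difference from ST-HSC was 1.25 for miR-451 (adjusted p = 0.295) and 1.84 for miR-486 (adjusted p = 0.149), neither of them called, while the median miR lay 1.59 lower on the LT-HSC array. Relative to the median miR the difference was thus 2.84 without normalization and 3.99 with quantile normalization for miR-451. MiR-486 was not measured in ST-HSC, and its fitted differences are not firm.

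**Figure D3:**
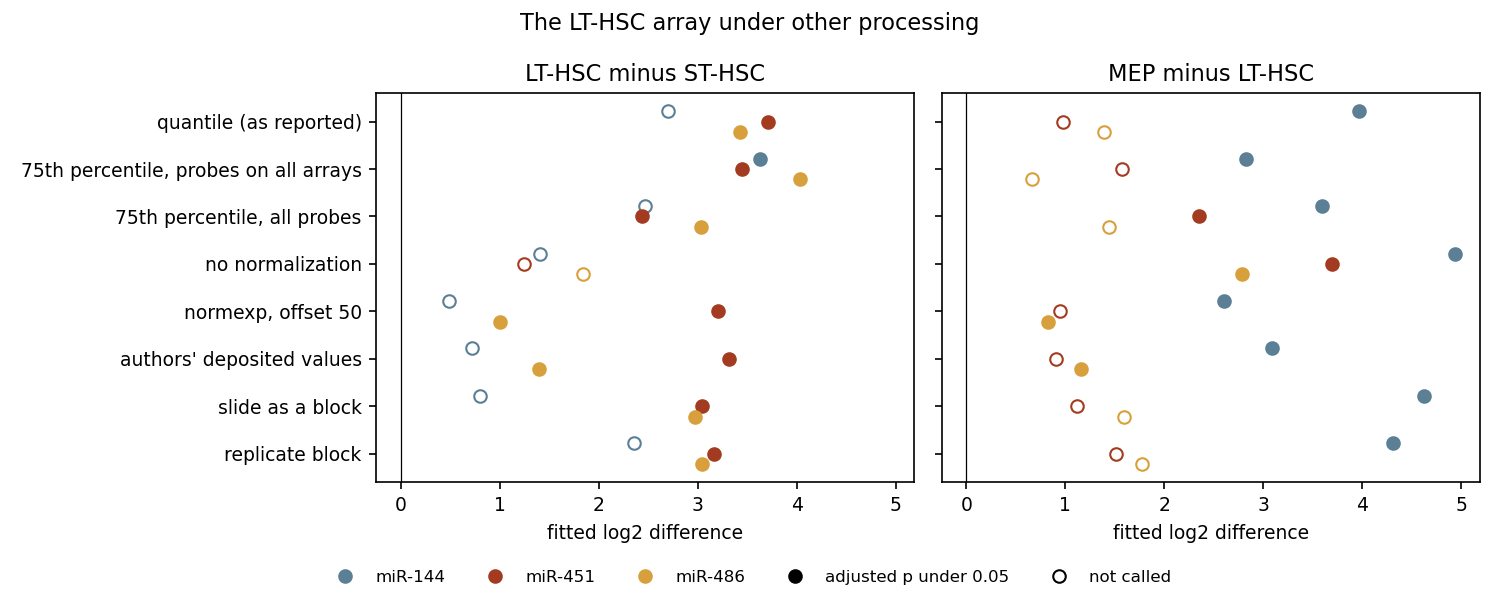
Fitted log2 difference of LT-HSC minus ST-HSC (left) and MEP minus LT-HSC (right) for each miR under 8 ways of processing the same arrays; filled points have an adjusted p under 0.05. All points lie to the right of zero, with miR-451 between 1.25 and 3.71 on the left and between 0.91 and 3.69 on the right.

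Other miRs known to be abundant in mature red cells were read beside the LT-HSC result. Of 5 such miRs, miR-16, miR-25, miR-92a, miR-185 and let-7b, 0 were higher on the LT-HSC array than in ST-HSC and 0 were lower by limma at an adjusted p under 0.05, and also 0 at an unadjusted one. Of all miRs tested 6.33% were higher and 16.5% lower, so that 0 of 5 says nothing particular to these miRs. Against MPP, miR-16 was higher by 1.89 (adjusted p = 0.036), a call that was lost when any 1 of the MPP arrays was left out, and miR-25 and miR-92a fell by 0.93 (adjusted p = 0.0358) and 0.91 (adjusted p = 0.0465). Their summed normalized signal was 6216 units on the LT-HSC array and 6270 to 8465 on the ST-HSC arrays, and miR-185 did not pass as well above background in LT-HSC.
Their part in the result was not tested beyond these values, and the erythroid miRs are themselves the usual markers of red cells.

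Markers of other cells were read on the same arrays. MiR-142-3p and miR-142-5p, found in blood cells of every kind, were well above background on 16 of 16 arrays. MiR-122 of the liver was on 0 arrays, and miR-1, miR-133a and miR-206 of muscle, the other tissue of miR-486, were on 1 array each and not on the LT-HSC array. MiR-223 of granulocytes and monocytes fell by 3.05 from CMP and, set against GMP, fell by 4.43 in MEP on the log2 scale. MiR-126-3p and miR-150, of platelets and megakaryocytes, were not called between LT-HSC and ST-HSC (adjusted p = 0.290 and 0.715). Their summed signal was 321 units in LT-HSC and 150 to 309 in ST-HSC, and it was highest in MPP, at 472 to 628. MiR-150 and miR-342-3p of mature lymphocytes summed to 90.9 units in LT-HSC and 70.9 to 103 in ST-HSC, and again were highest in MPP, at 249 to 312. From CMP to MEP miR-126-3p fell by 1.88 and miR-150 fell by 2.37 (adjusted p = 0.00044 for each), and miR-342-3p fell by 3.03 (adjusted p = 5.6e-05).

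CMP, the parent of MEP, was set against GMP and ST-HSC. MiR-451 was 1.54 higher in CMP than in GMP (95% interval 0.23 to 2.85, adjusted p = 0.150), although its CMP and GMP arrays did not overlap after normalization, and 0 of 3 miRs were called where 4.64% of all miRs tested were called higher and 2.95% lower. With the replicate number as a block miR-451 was called (adjusted p = 0.0221), although the titles give no number to the third array of either population. At an unadjusted p under 0.05 limma called 2 of the 3, miR-451 and miR-486. The share of all miRs at that threshold, or without overlap, is not given here, so these counts have no background to be set against. Within slides this difference was 1.97 on slide 1 and 0.68 on slide 2. MiR-486, measured on CMP 1 alone, was 1.24 higher in CMP than in GMP (adjusted p = 0.151), and miR-144 was measured on no array of either population.
Between CMP and ST-HSC, miR-451 was 6.91 against 7.44, a difference of -0.53 (95% interval -1.84 to 0.78, adjusted p = 0.540), and 0 of 3 miRs were called, with an unadjusted p under 0.05 in 0 of 3, where 9.7% of all miRs tested were higher in CMP and 8.02% lower. Slide 2 alone held both populations, with 1 array a side. There the miR-451 difference was -1.47, and CMP 3 had 0.340 times the units of ST-HSC 1. Between ST-HSC and MPP miR-451 differed by 1.06 (95% interval -0.25 to 2.37, adjusted p = 0.357), and 0 of 3 were called, with an unadjusted p under 0.05 in 0 of 3, where 1.27% of all miRs tested were higher in ST-HSC and 3.38% lower. On slide 3, which held both populations, the difference was 0.73.

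The ratio of miR-451 to miR-144 asks whether both products of the transcript kept step. As the probes cannot be compared in level, the ratio is read between arrays and not as a relative abundance. In units it was 11.9, 7.55 and 11.2 on the MEP arrays, 11.7 on ST-HSC 1 and 23.8 on LT-HSC 1. In units ST-HSC 1 thus lay within the range of MEP although both miRs were far dimmer, and LT-HSC 1 had the highest ratio of these 5 arrays.
On the other 11 arrays miR-144 was not well above background and the ratio is a lower bound. The bound was at least 9.15 and 19.4 on ST-HSC 2 and 3, at least 15.9, 6.25 and 12.2 on the MPP arrays, at least 17.2, 3.70 and 6.25 on the CMP arrays, and at least 3.69, 2.52 and 5.37 on the GMP arrays. ST-HSC 3, MPP 1, MPP 3 and CMP 1 had bounds above the ratio of every MEP array, so on these arrays miR-451 was brighter for a given signal of miR-144 than in MEP. The bound on CMP 1 rests on a limit of 23.3 units, below the 95th percentile of the negative controls of that array, 30.6 units. The limits on CMP 2 and GMP 1 also lay below that percentile of their own arrays. The bounds on GMP lay below MEP and fix no direction there.

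After normalization the log2 ratio was 3.26, 2.79 and 2.55 on the MEP arrays, 3.62 on ST-HSC 1 and 5.86 on LT-HSC 1, so that ST-HSC 1 no longer lay within the range of MEP. The mean was 2.87 ± 0.36 in MEP (SD, n = 3) and 4.74 on the other 2 arrays, which are of different populations, with -1.87 between them (exact permutation test, two-sided, p = 0.1). With 10 splits of the arrays 0.1 is the smallest p possible, so the test could not pass the threshold and settles no direction. In units the difference was -0.73 on the log2 scale (exact permutation p = 0.2). Without LT-HSC 1 it was -0.77 and without ST-HSC 1 it was -3.00 after normalization, so that the LT-HSC array set most of it.

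**Figure D4:**
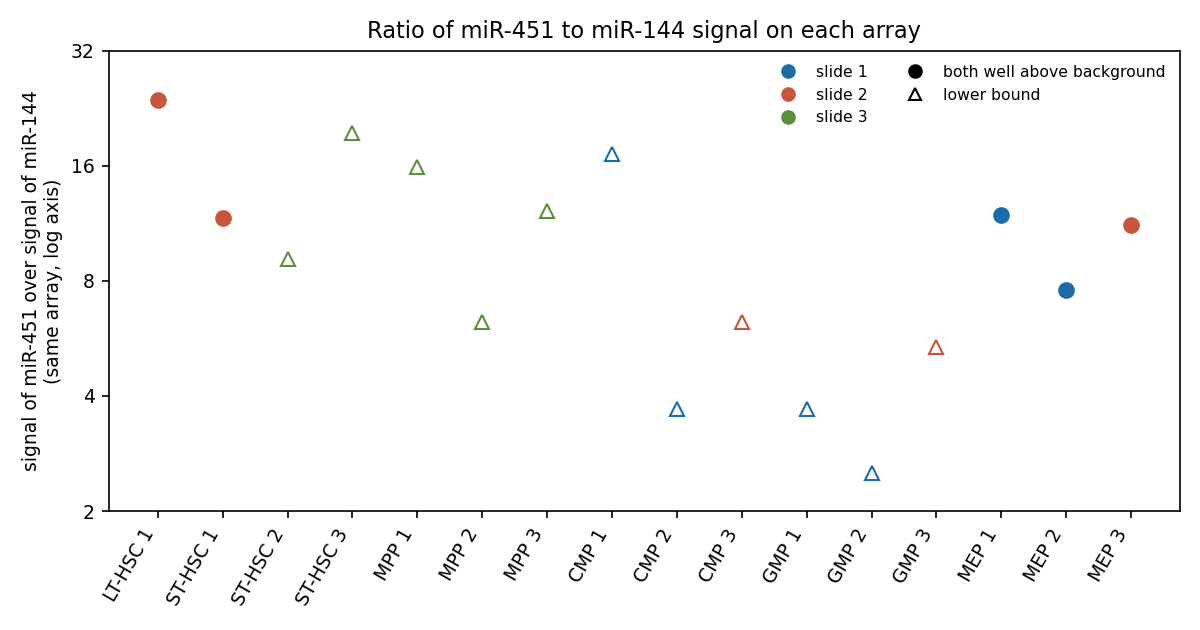
Ratio of miR-451 to miR-144 signal in background-subtracted units on each array (log axis), coloured by slide; filled circles are arrays on which both miRs were well above background, and open triangles are lower bounds on arrays without miR-144. The MEP circles lie between 7.55 and 11.9 with ST-HSC 1 at 11.7, LT-HSC 1 lies at 23.8, and 4 triangles lie above every MEP circle.

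Across the 16 arrays miR-486 was the miR most like both miR-144 and miR-451, and miR-762 came before the other member of the pair for each of them. This describes arrays that share slides, scaling and the high MEP values. Pearson's r of normalized log2 values was 0.966 for miR-451 and miR-486, 0.947 for miR-144 and miR-486 and 0.920 for miR-144 and miR-451. Over the 13 arrays without MEP it was 0.896, 0.782 and 0.751, where most values of miR-144 and miR-486 were near the floor. MiR-486 lies on another chromosome than the shared transcript.
Of the remaining miRs, miR-762 and miR-483 were the nearest to all 3, with r of 0.931, 0.932 and 0.944 for miR-762 and 0.908, 0.894 and 0.932 for miR-483 in the order miR-144, miR-451, miR-486. MiR-30c-1* was the fifth for miR-144, at 0.908, and miR-705 the fifth for miR-451 and miR-486, at 0.866 and 0.882. Over the 13 arrays without MEP, r in the same order was 0.757, 0.786 and 0.803 for miR-762. For miR-483 it was 0.575, 0.666 and 0.758. It was 0.494 for miR-30c-1* with miR-144, and 0.587 and 0.580 for miR-705 with miR-451 and miR-486. MiR-762 had a mean log2 level of 7.91 in MEP and 4.73 on the other arrays, a smaller gap than that of miR-144, 9.25 against 2.47.

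Other miRs of red cell maturation were read from lists of known miRs. Of 7 miRs known to fall in or to hold back red cell maturation, 7 were lower in MEP than in CMP and 6 lower than in GMP, with a median log2 difference of -2.49 and -2.26 beside -0.55 and -0.44 over all 237 miRs, of which 43.9% and 40.9% were called lower. MiR-221 and miR-222, which restrain the stem cell factor receptor Kit, fell by 2.85 (adjusted p = 5.7e-07) and 2.49 (adjusted p = 1.4e-07) from CMP to MEP. MiR-24, which targets the activin receptor Acvr1b, fell by 2.10 (adjusted p = 8.7e-06), and miR-155, known in immune cells, fell by 2.51 (adjusted p = 0.00032). In the same comparison miR-223 fell by 3.05 (adjusted p = 4.2e-05) and miR-191 fell by 1.49 (adjusted p = 0.0111).
MiR-150, which targets Myb, fell by 2.37 from CMP (adjusted p = 0.00044), and its difference from GMP of -0.68 was not called (adjusted p = 0.201). MiR-191 was well above background on 4 arrays only.

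Of 8 miRs known to rise or act in red cell maturation, 7 could be tested, and 0 were higher in MEP than in CMP or GMP by limma, at an adjusted or an unadjusted p under 0.05. With the 75th percentile of probes present on all arrays as the scale, 2 were called higher in each comparison. The share of all miRs called on that scale is not given here. After quantile normalization 20.7% and 21.9% of all miRs tested were called higher than in CMP and GMP, a share at which few of 7 would be called. Set against GMP, miR-22 fell by 1.32 in MEP (adjusted p = 0.0235). MiR-185 had the largest positive differences of the list, 0.83 over CMP (adjusted p = 0.0767) and 0.78 over GMP (adjusted p = 0.102), neither of them called. In MEP the 3 erythroid miRs thus stood apart in size from miR-15a, miR-15b, miR-16, miR-107 and miR-210, whose differences from CMP and GMP lay between -0.60 and 0.37.
On the LT-HSC array, miR-22 was higher than in ST-HSC by 2.54 (adjusted p = 0.0133) and than in MPP by 3.08 (adjusted p = 0.0027), and the differences of miR-15b were -0.94 (adjusted p = 0.0304) and -1.21 (adjusted p = 0.0058).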

How the data were processed

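One-colour miR arrays of 16 sorted samples were read from the deposited scanner output, which the authors' facility made with Agilent Feature Extraction 9.5.3.1 (slide 1) or 10.2.1.3 (slides 2 and 3), per the file headers. The deposited intensities are per spot, with the local background subtracted by that software and no normalization between arrays. The deposited yes-or-no calls per spot (other values) give detection. The authors also deposited log2 values, quantile-normalized with limma per the methods and ranked within an array as the median foreground, hence with no background subtracted.

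Groups came from sample titles, which number arrays 1 and 2 of CMP, GMP and MEP and arrays 2 and 3 of ST-HSC and MPP. The unnumbered array took the remaining number. The myeloid arrays numbered 1 and 2 were on slide 1, those numbered 3 on slide 2 together with LT-HSC 1 and ST-HSC 1, and all others on slide 3. Control and flagged spots were left out. Probe means were quantile-normalized and raised to 3.07 units, a typical 95th percentile of negative controls (the median array). Probes well above background on at least 3 arrays, 493 of 237 miRs, were kept. A model with a mean for each population was fitted (R 4.3.3, limma 3.58.1, data.table v. 1.17.8, 10 residual and 3.10 prior degrees of freedom), with two-sided tests, Benjamini-Hochberg adjustment over 237 miRs in each comparison and calls at an adjusted p under 0.05. The fit was tested on simulated data. Precision is limited by how few arrays each population has.

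The miRs named are the 3 erythroid miRs, for each of them the 5 miRs of highest r, and 3 lists of known miRs with markers of other cells. These members and lists were chosen with earlier results of these data known. Pairs of neighbours in the order of miR-451 (CMP and MPP, MPP and GMP) were added once that order was seen. Alternatives covered scaling, background, floor, filter, probe summary, slide and replicate blocks, the authors' values and each array left out.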

Additional observations from a re-analysis of the deposited data

How the results depend on the processing

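MEP against CMP, GMP, ST-HSC and MPP kept its direction and its side of the threshold for all 3 miRs in every alternative. Differences that involve the LT-HSC array, and those of values near the floor, moved. With the 75th percentile of probes present on all arrays, miR-144 in LT-HSC minus ST-HSC was 3.63 and called (adjusted p = 0.0146), and miR-486 in CMP minus ST-HSC was -0.00046. With the 75th percentile of all probes, miR-451 in MEP minus LT-HSC was 2.35 and called. With no normalization, MEP minus LT-HSC was 3.69 for miR-451 and 2.78 for miR-486, both called, LT-HSC minus ST-HSC was 1.25 and 1.84, no longer called, LT-HSC minus MPP was 1.87 for miR-451, no longer called, and CMP minus ST-HSC was 0.051 for miR-451. These 3 scalings change an array by a single factor at most, which cancels in the log2 ratio of miR-451 to miR-144. The difference in this ratio, MEP minus the other arrays, was therefore -0.73 as in units, and is no separate check. With normexp it was -0.40, miR-144 in CMP minus ST-HSC was -0.012 and miR-486 in MEP minus LT-HSC was 0.82 and called. With the authors' values these were -0.96, -0.00014 and 1.16, the last called. A floor of 1 unit left miR-144 in MEP minus LT-HSC at 3.96, no longer called (adjusted p = 0.0523). A floor of 10 units gave 1.58 for miR-144 in LT-HSC minus ST-HSC and 1.39 for miR-486 in MEP minus LT-HSC, both called, and -0.24 for miR-144 in CMP minus ST-HSC. With the mean of the probes miR-144 in LT-HSC minus ST-HSC was 2.80 and called. With slide as a block miR-144 was 0.83 in LT-HSC minus MPP, no longer called, and -1.01 in CMP minus ST-HSC. The cause of these changes was not tested.

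With the replicate block miR-451 in CMP minus GMP was 1.54 and called (adjusted p = 0.0221), as it was in the 9 myeloid arrays alone, 1.54 (adjusted p = 0.0248), a fit added after seeing the data, and no other call of the 3 miRs changed. The titles number only 2 arrays each of CMP, GMP and MEP, so that a pairing is not settled by the labels. Deviations from the group means of same-numbered CMP, GMP and MEP arrays correlated at 0.23 to 0.63 and each CMP array was most like the GMP and MEP arrays of its number (3 of 3), while between GMP and MEP this held for 1 of 3, and slide follows the number in part.

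With each array left out in turn, LT-HSC minus ST-HSC for miR-144 ran from 2.22 to 3.67, called without ST-HSC 1 (3.67, adjusted p = 0.0018) and without CMP 2 (2.68, adjusted p = 0.0433). CMP minus ST-HSC for miR-144 ran from -0.27 to 1.18, negative without ST-HSC 2, ST-HSC 3 or CMP 3. The ratio difference ran from -3.00 to -0.77. No other call of the 3 miRs changed. Of the miRs that fall in red cell maturation 6 or 7 were called lower in MEP throughout, 0 to 2 of those that rise were called higher, and miR-16 lost its call in LT-HSC minus MPP in 6 alternatives that kept all arrays and in 3 more, without MPP 1, MPP 2 or MPP 3. LT-HSC 1 has no replicate, and no result on it could be run without it.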
